A study of Mus musculus with 139 samples.

Results

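A set of 10 genes of basal and transitional epithelium were followed in mouse lung, namely Trp63, Krt5, Krt8, Krt14, Krt15, Krt17, Krt18, Krt19, Cldn4 and Sprr1a. Members were taken by symbol from array features paired with a single gene, with the brightest feature kept for a gene with several, so 9 of the 10 were measured among 22180 genes. The feature for Krt5 was paired with Krt6a as well, so Krt5 is not analysed here. Whole lung came from male mice (strain spelled C57BL/J6 by the submitters, 7 weeks old on arrival) after a single pharyngeal aspiration of a suspension into the airway. The agents were multi-walled carbon nanotubes (MWCNT, rigid carbon fibres) at 1, 10, 40 or 80 µg, crocidolite asbestos (an amphibole fibre) at 120 µg, or the dispersion medium alone (DM), which suspended every agent and held saline, glucose, mouse serum albumin and a surfactant phospholipid. Lungs were taken 1, 6 or 12 months later, which gave 18 groups of 8 mice, apart from 5 with crocidolite at 1 month, 7 with crocidolite at 12 months and 6 with 1 µg at 12 months. Crocidolite was given at a single dose, higher than any MWCNT dose, so fibre type and mass cannot be told apart. Values are on a log2 scale, so a difference of 1 is a doubling, and differences are exposed minus DM unless stated. The crocidolite and MWCNT comparisons of a month share its DM mice.

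Basal cells are the stem cells of the mouse trachea and large airways. They depend on the transcription factor p63, encoded by Trp63, and hold the keratins 5, 14, 15 and 17. Luminal airway cells and alveolar type 2 cells carry the simple keratins, of which keratin 8 pairs with keratin 18. After alveolar injury in mice, type 2 cells on the way to type 1 cells pass through a transitional state known for high Krt8, Krt18, Krt19, Cldn4 (a tight junction claudin) and Sprr1a (a small proline-rich protein first known from the cornified envelope of squamous epithelium). Krt14, Krt15, Krt17 and Krt19 lie in the type I keratin cluster, while Krt8 and Krt18 are neighbours in the other keratin cluster, which also holds Krt5.

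RefSeq promoter windows (assembly GRCm38.p6) were at hand for 6 of the 10 genes, with 1 entry each. They lie around the gene start, except that of Krt14. Its window (chr11:100205981-100206280, minus strand) lies inside the span of the gene (100203162-100207510). Those of Sprr1a and Cldn4 are shown because their levels were highest 1 month after crocidolite, and those of Krt8 and Krt18 because these neighbours had the most alike levels across groups. Capitals mark matches to the AP-1 motif TGANTCA, the TATA box TATAAA, the Sp and KLF motif GGGCGG or the TEAD motif GGAATG, each searched on both strands.
Sprr1a, chr3:92485832-92486131, minus strand: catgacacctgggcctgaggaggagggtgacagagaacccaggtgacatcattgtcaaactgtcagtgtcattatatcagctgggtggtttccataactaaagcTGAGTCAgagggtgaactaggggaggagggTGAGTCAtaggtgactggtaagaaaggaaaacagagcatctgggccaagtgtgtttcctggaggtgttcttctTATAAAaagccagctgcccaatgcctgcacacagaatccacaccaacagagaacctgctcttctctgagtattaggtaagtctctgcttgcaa
Cldn4, chr5:134946885-134947184, minus strand: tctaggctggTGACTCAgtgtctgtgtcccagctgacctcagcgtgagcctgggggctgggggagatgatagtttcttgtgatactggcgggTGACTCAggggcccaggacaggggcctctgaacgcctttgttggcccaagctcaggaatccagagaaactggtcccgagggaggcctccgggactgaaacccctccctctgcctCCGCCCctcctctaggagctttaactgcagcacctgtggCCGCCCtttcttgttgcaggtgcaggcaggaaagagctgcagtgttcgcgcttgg
Krt8, chr15:102004293-102004592, minus strand: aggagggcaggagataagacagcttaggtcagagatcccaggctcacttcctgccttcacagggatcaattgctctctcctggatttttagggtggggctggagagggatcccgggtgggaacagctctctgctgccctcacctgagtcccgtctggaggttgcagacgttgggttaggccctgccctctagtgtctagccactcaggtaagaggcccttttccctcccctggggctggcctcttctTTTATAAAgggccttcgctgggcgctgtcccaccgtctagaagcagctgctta
Krt18, chr15:102027966-102028265, plus strand: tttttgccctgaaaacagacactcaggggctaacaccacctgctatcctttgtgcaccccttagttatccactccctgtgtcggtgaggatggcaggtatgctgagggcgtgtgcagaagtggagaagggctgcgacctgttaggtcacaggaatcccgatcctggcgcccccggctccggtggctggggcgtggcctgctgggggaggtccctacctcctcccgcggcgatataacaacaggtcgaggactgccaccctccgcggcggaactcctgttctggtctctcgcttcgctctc
The Sprr1a window held AP-1 matches with first bases at -146 and -116 from the start and a TATA box match at -43. The Cldn4 window held AP-1 matches at -240 and -158 and matches to GGGCGG, read on the other strand, at -44 and -5. Krt8 held overlapping TATA box matches, on opposite strands, at -3 and -1, and none of the 4 motifs matched in the Krt18 window. AP-1 matches lay in 2 of the 6 member promoters and in 7.81% of the 32851 promoters of the table. For the TATA box these shares were 2 of 6 and 13.6%, for GGGCGG 1 of 6 and 35.7%, and for GGAATG 1 of 6 (Krt14, in the window inside the gene) and 14.7%. A match describes the sequence alone, and binding was not measured.

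The arrays were those of lung, with the surfactant gene Sftpc averaging 12.57 and the club cell gene Scgb1a1 12.64 in all mice but 9. Those 9 mice stood apart. Their Krt4, a keratin of stratified squamous epithelium such as that of the oesophagus, lay between 10.83 and 12.11, against 2.23 to 4.60 in the others. They were spread over 7 groups, with 2 mice each in 1 µg at 6 months and 80 µg at 12 months and 1 each in 1 µg and 80 µg at 1 month, 80 µg and crocidolite at 6 months, and DM at 1 month. The 12-month crocidolite and DM groups and the 6-month DM group held none. Krt13, the partner of Krt4, averaged 9.96 in the 9 mice and 3.21 in the rest, and skeletal muscle actin Acta1 averaged 9.88 in the 9 mice and 4.12 in the rest. The mean level of 26 squamous genes, leaving out Krt4, which chose the 9 mice, ran from 4.68 to 5.71 in them, above all others (3.05 to 3.78), and that of 10 skeletal muscle genes from 6.36 to 7.71, against 2.96 to 7.40 in the rest. Sftpc averaged 12.53 in the 9 mice.

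Of the 9 measured genes, 4 moved with Krt4. Krt15 lay between 5.25 and 6.54 in the 9 mice and between 2.30 and 4.96 in the others, so that 9 of 9 exceeded all the rest. Sprr1a lay between 6.53 and 9.21, against 2.999 to 6.79, with 8 of 9 above the rest, and Krt14 between 4.06 and 5.14, against 1.76 to 4.27, with 7 of 9. Trp63 had a median of 4.32 in the 9 mice and 3.46 in the others, but none of the 9 exceeded the highest of the others. The simple keratins, Krt17 and Cldn4 did not stand apart in these mice. The median of Krt8 was 7.91 in the 9 mice and 8.03 in the others, that of Krt18 7.45 and 7.47, that of Krt19 7.34 and 7.15, that of Cldn4 5.40 and 5.28, and that of Krt17 2.27 and 2.40. Results for the 4 genes that moved with Krt4 are therefore given with and without the 9 mice.

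**Figure D1:**
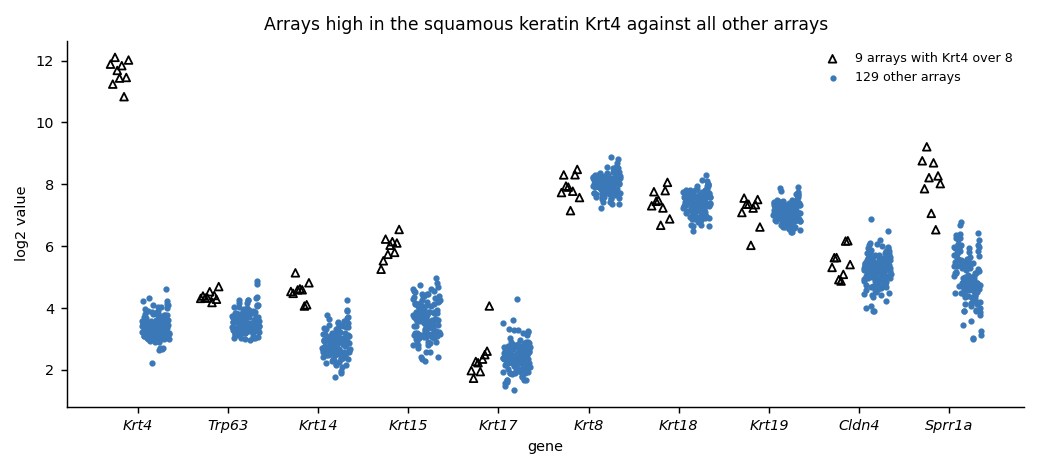
Log2 value of Krt4 and of the 9 measured genes in each mouse, with triangles for the 9 mice whose Krt4 was over 8 and dots for the others. Krt15, Sprr1a and Krt14 sit apart in the triangles, whereas Krt8, Krt18, Krt19, Cldn4 and Krt17 overlap the dots.

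Across all groups, Trp63, Krt8, Krt14, Krt17, Krt18 and Krt19 had their highest mean in crocidolite lungs at 12 months, and Cldn4 and Sprr1a in crocidolite lungs at 1 month, with or without the 9 mice. The lowest means of Krt8, Krt18 and Krt19 were in DM lungs at 6 months, and that of Sprr1a in DM lungs at 12 months. Highest and lowest group means were 2.25 apart for Sprr1a, 1.45 for Krt14, 1.11 for Trp63, 1.12 for Cldn4, and between 0.803 and 0.923 for the simple keratins. Neighbours in the order of the 18 means mostly differed by less than the larger of their SDs, with at most 1 exception per gene. Trp63 is such an exception, since its mean in crocidolite lungs at 12 months (4.36 ± 0.33, SD, n = 7) exceeded the next one by more than that. By array brightness, which cannot be compared between genes as an amount of RNA, 5 of the 9 lay above the median gene and Trp63, Krt14, Krt15 and Krt17 below it.

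**Figure D2:**
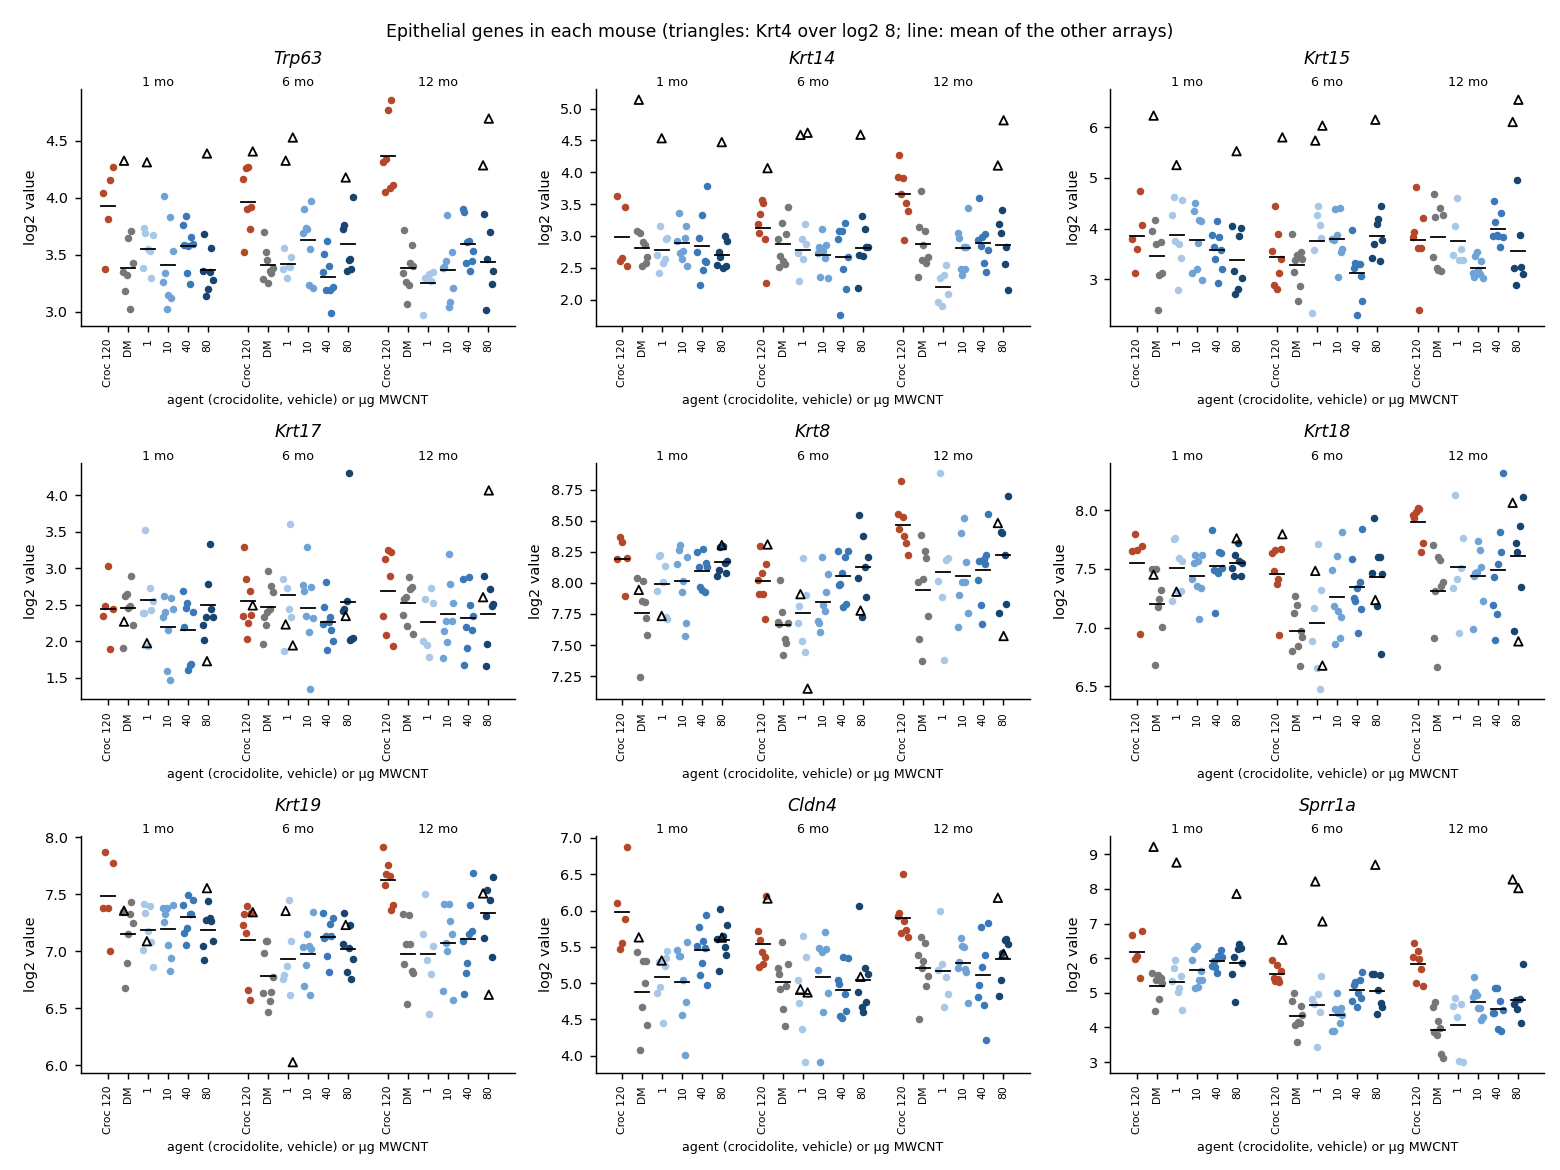
Log2 value of each gene in each mouse, by months after exposure, with crocidolite at 120 µg, DM and MWCNT doses in µg along each axis. Triangles are the 9 mice with Krt4 over 8 and lines are means of the other mice. Crocidolite mice at 12 months lie above all DM mice of that month for Trp63, Krt19 and Sprr1a, a separation that was not counted over all genes. For Cldn4 the lowest crocidolite mouse (5.6423) and the highest DM mouse (5.642) are all but tied.

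At 12 months after crocidolite, 6 of the 9 genes were higher than in DM lungs and 0 lower, where 6.47% of all genes were called, 4.31% higher and 2.16% lower (limma, Benjamini-Hochberg adjusted p under 0.05 over all 22180 genes, as in every test below). They were Trp63, Krt8, Krt18, Krt19, Cldn4 and Sprr1a. The median difference of the 9 was 0.643, against -0.00618 over all genes. Neither group held a mouse with high Krt4. Krt14 joined them when the 9 mice of other groups were left out of the shared estimate of spread, which made 7 of 9, with 4.32% of all genes higher. In whole lung, more cells of a type and more RNA per cell cannot be told apart. How many of all genes had groups that did not overlap was not counted for any comparison. Statements on overlap therefore describe the values alone.

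Trp63 in the 7 crocidolite mice at 12 months read 4.05, 4.09, 4.11, 4.31, 4.342, 4.77 and 4.86. In the 8 DM mice it ran from 3.07 to 3.72 with a median of 3.37. The groups did not overlap, and the difference was 0.98 ± 0.17 (SE, 1.97-fold, adjusted p = 5.57e-06). Among mice without the unexplained word replacement in the array title the difference was 1.14 (2 against 5 mice), and among those with it 0.87 (5 against 3).

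Sprr1a in the same crocidolite mice read 5.20, 5.28, 5.69, 5.97, 6.02, 6.21 and 6.44, whereas the DM mice ran from 3.12 to 4.74 with a median of 3.92. Every crocidolite mouse again lay above every DM mouse. This was the largest difference of the 9, at 1.89 ± 0.46 (3.71-fold, adjusted p = 0.00278), and it was 1.78 and 1.58 in mice without and with the word replacement. Krt14, the type I partner of keratin 5, averaged 3.66 ± 0.43 in crocidolite lungs and 2.88 ± 0.43 in DM lungs (SD, n = 7 and 8), with 3 of 7 above all DM mice. Its difference of 0.78 ± 0.29 did not pass with all mice (adjusted p = 0.0873) and passed without the 9 mice (0.78 ± 0.19, adjusted p = 0.00296).

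The simple keratins were higher together. Krt19, a type I keratin of ducts and airways, read 7.36, 7.41, 7.58, 7.66, 7.68, 7.75 and 7.92 in crocidolite mice, against 6.54 to 7.33 with a median of 6.97 in DM mice. The groups did not overlap, with a difference of 0.64 ± 0.14 (1.56-fold, adjusted p = 0.000972). Krt18 averaged 7.90 ± 0.15 in crocidolite lungs and 7.31 ± 0.36 in DM lungs, a difference of 0.59 ± 0.16 (adjusted p = 0.00965), with 6 of 7 above all DM mice. Krt8 averaged 8.47 ± 0.19 in crocidolite lungs and 7.94 ± 0.36 in DM lungs, a difference of 0.52 ± 0.14 (adjusted p = 0.00782), with 4 of 7 above all DM mice. In mice without and with the word replacement the differences were 0.47 and 0.63 for Krt19, 0.37 and 0.68 for Krt18, and 0.35 and 0.56 for Krt8.

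Cldn4 averaged 5.90 ± 0.29 in crocidolite lungs at 12 months and 5.21 ± 0.36 in DM lungs, with 7 of 7 above all DM mice. The lowest crocidolite mouse (5.6423) and the highest DM mouse (5.642) were all but tied. The difference was 0.69 ± 0.22 (1.62-fold, adjusted p = 0.0367), and 0.46 and 0.81 in mice without and with the word replacement. Without the 10 mice whose arrays correlated least with the others it just missed the threshold (0.59, adjusted p = 0.0501). Krt15 and Krt17, 2 other basal keratins, did not pass. Krt15 averaged 3.78 ± 0.73 in crocidolite lungs and 3.83 ± 0.63 in DM lungs (difference -0.05, 95% interval -0.837 to 0.738), and Krt17 2.69 ± 0.56 in crocidolite lungs and 2.52 ± 0.27 in DM lungs (0.17, -0.315 to 0.654), so a shift of the size of Trp63's was not within either interval. Both genes lay below the median gene (means of 3.77 and 2.42 over all mice), where signal is limited, so the intervals describe array values alone. The squamous genes gave a mean level of 3.32 to 3.55 in the crocidolite mice and 3.20 to 3.62 in the DM mice, and the skeletal muscle genes 3.06 to 3.57 in the crocidolite mice and 3.26 to 4.87 in the DM mice. The highest Krt4 in these crocidolite mice was 4.60.

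**Figure D3:**
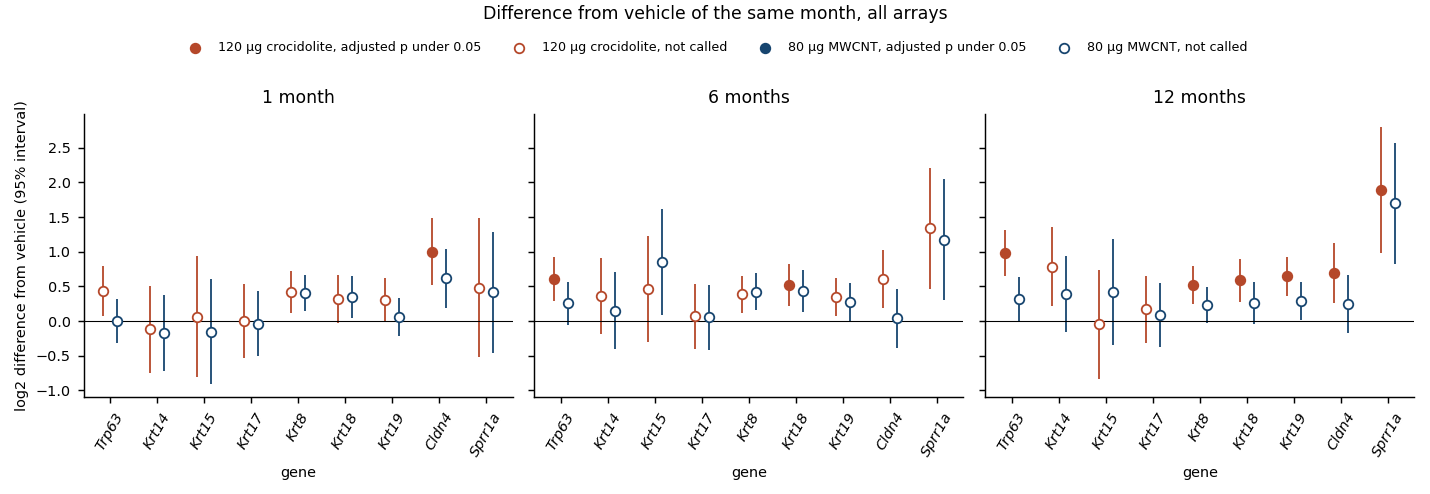
Log2 difference from DM of the same month for crocidolite and 80 µg MWCNT, with 95% intervals from the limma fit over all mice, filled where the adjusted p was under 0.05. Of the crocidolite genes 1 is filled at 1 month, 2 at 6 months and 6 at 12 months, and 0 are filled for 80 µg.

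At 6 months after crocidolite, Trp63 and Krt18 were higher than in DM lungs, 2 of 9 where 3.68% of all genes were called and 1.45% were higher. Without the 9 mice the 2 were Trp63 and Sprr1a, where 0.974% were. Trp63 ran from 3.52 to 4.41 with a median of 4.04 in 8 crocidolite mice, against 3.26 to 3.70 with a median of 3.37 in 8 DM mice, and 7 of 8 exceeded all DM mice. The difference was 0.61 ± 0.16 (1.52-fold, adjusted p = 0.013) with all mice, 0.55 ± 0.13 (adjusted p = 0.00429) in the fit without the 9 mice, 1 of them a crocidolite mouse of this group, and 0.597 among mice without the word replacement, a word that no 6-month crocidolite array carried.

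Sprr1a ran from 5.30 to 6.53 with a median of 5.53 in 6-month crocidolite mice, against 3.59 to 4.99 with a median of 4.25 in DM mice. The groups did not overlap. The difference of 1.34 ± 0.44 with all mice had an adjusted p of 0.07, and without the 9 mice 1.21 ± 0.25 had an adjusted p of 0.00103, with 7 of 7 mice above all DM mice. Within mice lacking the word replacement that second difference was 1.26 (7 against 7). Krt18 averaged 7.50 ± 0.27 in crocidolite lungs and 6.97 ± 0.21 in DM lungs, a difference of 0.52 ± 0.15 (adjusted p = 0.0317), and 0.48 ± 0.16 in the fit without the 9 mice (adjusted p = 0.0831). Krt18 had a second, dimmer feature whose difference was 0.317, and the mean of both features did not pass (0.42, adjusted p = 0.197). Krt8, Krt19 and Cldn4 had differences of 0.39 ± 0.14, 0.35 ± 0.14 and 0.61 ± 0.21 (adjusted p of 0.093, 0.174 and 0.0961).

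At 1 month after crocidolite, Cldn4 alone passed among the 9 with all mice, where 5.76% of all genes were called and 2.93% were higher. It read 5.46, 5.55, 5.88, 6.11 and 6.88 in the 5 crocidolite mice, against 4.08 to 5.63 with a median of 5.15 in 8 DM mice. The lower readings overlapped the DM range, and 3 of 5 lay above it. The difference was 1.00 ± 0.24 (adjusted p = 0.00337), and without the highest crocidolite mouse, replicate 5, it was 0.77 (adjusted p = 0.0826). The call was also lost when only the groups compared were fitted (adjusted p = 0.0893). It was 0.98 and 1.09 in mice without and with the word replacement.

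Leaving out the 9 mice removed the DM mouse at 1 month in which Sprr1a was 9.21, Krt15 6.23 and Krt14 5.14. Then 3 of 9 members were higher with crocidolite, where 2.83% of all genes were. Cldn4 differed by 1.09 ± 0.25 (adjusted p = 0.00173), Trp63 by 0.55 ± 0.14 (adjusted p = 0.00753) and Sprr1a by 0.98 ± 0.28 (adjusted p = 0.0193), with 5, 4 and 4 of 5 crocidolite mice above all remaining DM mice. Sprr1a read 5.43, 5.99, 6.05, 6.68 and 6.79 in the crocidolite mice and 4.48 to 5.56 in these 7 DM mice. Trp63 read 3.38, 3.81, 4.04, 4.16 and 4.27, against 3.02 to 3.71. Differences without and with the word replacement were 0.971 and 1.01 for Sprr1a and 0.325 and 0.709 for Trp63. With all mice the differences were 0.43 for Trp63 (adjusted p = 0.177) and 0.48 for Sprr1a (adjusted p = 0.721).

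Whether the crocidolite differences themselves changed between 1 and 12 months was tested as an interaction, which called 0 of the 9 genes and 0.0541% of all genes with limma. At an unadjusted p under 0.05 there were 3 of the 9 and 1447 of all 22180 genes. Krt14 differed by 0.90 ± 0.43 more at 12 months (adjusted p = 0.72), Sprr1a by 1.41 ± 0.68 (adjusted p = 0.731) and Trp63 by 0.55 ± 0.25 (adjusted p = 0.689). Without the 9 mice these were 0.61 ± 0.29, 0.91 ± 0.38 and 0.43 ± 0.19 (adjusted p of 0.805, 0.701 and 0.764). That of Sprr1a was smaller by more than 1.5 times. In that fit 0 of 9 passed, where 0.0676% of all genes did. At an unadjusted p under 0.05 there were 3 of 9 in it, a count not made over all genes for that fit. The count of called genes at 12 months is thus not shown to differ from that at 1 month.

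With 80 µg MWCNT, 0 of the 9 genes passed against DM at 1, 6 or 12 months, where limma called 1.79% (1.69% higher), 0.933% and 0.176% of all genes. At an unadjusted p under 0.05 there were 3, 4 and 3 of the 9, and 2243, 1860 and 2389 of all 22180 genes. Without the 9 mice 0 of the 9 genes passed as well, where 1.65%, 0.645% and 0.252% of all genes were called. In that fit 4, 4 and 2 of the 9 were at an unadjusted p under 0.05, a count not made over all genes for that fit. The differences nonetheless had sizes that can be stated. At 1 month Krt8 lay above all DM mice in 8 of 8 MWCNT mice, at 8.06 to 8.30 against 7.24 to 8.04, with a difference of 0.40 ± 0.13 (adjusted p = 0.115). Cldn4 differed by 0.62 ± 0.21 at 1 month (adjusted p = 0.148), and Krt8 and Krt18 by 0.42 ± 0.13 and 0.43 ± 0.15 at 6 months (adjusted p of 0.131 and 0.228).

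With all mice Sprr1a came nearest to the threshold, 12 months after 80 µg. It ran from 4.14 to 8.27 with a median of 4.81 in 8 MWCNT mice, against 3.12 to 4.74 with a median of 3.92 in 8 DM mice, so the groups overlapped. The difference was 1.70 ± 0.44 (3.24-fold, adjusted p = 0.0719). The 2 highest MWCNT mice, at 8.27 and 8.02, were those with high Krt4. The other 6 averaged 4.80 ± 0.57, against 3.94 ± 0.58 in DM lungs (SD), and lay between 4.14 and 5.84. In the fit without the 9 mice the difference was 0.86 ± 0.26 (adjusted p = 0.123), and Krt8 at 6 months was nearest (0.47 ± 0.14, adjusted p = 0.0839). Among the mice with Krt4 at or under 8, the Sprr1a difference at 12 months was 1.27 without the word replacement (3 against 5) and 0.263 with it (3 against 3). Trp63 averaged 3.70 ± 0.56 with 80 µg at 12 months and 3.38 ± 0.20 with DM, and 3.44 ± 0.31 without the 2 mice of high Krt4. The 80 µg effect at 12 against 1 month was called different for 0 of the 9 genes with limma (0.00902% of all genes). At an unadjusted p under 0.05 there were 1 of the 9 and 1717 of all 22180 genes. For Sprr1a the 80 µg effect was 1.28 larger at 12 months with all mice (95% interval 0.0434 to 2.52, adjusted p = 0.625) and 0.19 larger without the 9 mice (SE 0.37).

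Against crocidolite at 12 months, 80 µg MWCNT lungs had lower Trp63, 1 of the 9 where 0.83% of all genes were lower. Trp63 read 3.02 to 4.69 with a median of 3.58 in the 8 MWCNT mice, against 4.05 to 4.86 with a median of 4.31 in the 7 crocidolite mice. All MWCNT mice but 2, those with high Krt4, lay below every crocidolite mouse. The difference, MWCNT minus crocidolite, was -0.66 ± 0.17 (0.633-fold, adjusted p = 0.0195). It was -1.05 and -0.45 in mice without and with the word replacement, and the call was lost when the groups compared were fitted alone (adjusted p = 0.266).

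Without the 9 mice, Trp63, Krt14 and Sprr1a were lower with 80 µg than with crocidolite at 12 months, 3 of 9 where 0.541% of all genes were. Trp63 averaged 3.44 ± 0.31 in 6 MWCNT lungs and 4.36 ± 0.33 in 7 crocidolite lungs, a difference of -0.92 ± 0.14 (adjusted p = 1.01e-06), with 6 of 6 below all crocidolite mice. Krt14 averaged 2.86 ± 0.45 in MWCNT lungs and 3.66 ± 0.43 in crocidolite lungs (-0.80 ± 0.20, adjusted p = 0.0348). Sprr1a averaged 4.80 ± 0.57 in MWCNT lungs and 5.83 ± 0.47 in crocidolite lungs (-1.03 ± 0.27, adjusted p = 0.036). Within mice without and with the word replacement the Krt14 differences were -0.941 and -0.526 and those of Sprr1a -0.513 and -1.32. With all mice these 2 genes differed by -0.40 ± 0.29 and -0.20 ± 0.46 (adjusted p of 0.576 and 0.889). At 1 and 6 months 0 of 9 passed, with and without the 9 mice, where 0.0902% and 0.0271% of all genes were called with them and 0.018% and 0.0271% without. At an unadjusted p under 0.05 there were 1 and 2 of the 9 with all mice, and 2270 and 1029 of all 22180 genes.

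At 1, 10 and 40 µg MWCNT 0 of the 9 genes passed against DM at any time, with or without the 9 mice. The shares of all genes called by limma were 0% at 1 µg, 0.0225%, 0.00451% and 0% at 10 µg, and 0.573%, 0.212% and 0.0361% at 40 µg, at 1, 6 and 12 months. The shares without the 9 mice ran from 0% to 0.613%. At an unadjusted p under 0.05 there were 0, 2 and 1 of 9 at 1 µg, 0 at 10 µg at each time, and 2, 3 and 0 at 40 µg with all mice. Over all 22180 genes there were 437, 1249 and 595 at 1 µg, 1018, 1781 and 945 at 10 µg, and 1435, 1876 and 2622 at 40 µg. The counts of the 9 genes without the 9 mice were 0, 0 and 1 at 1 µg, 0, 0 and 2 at 10 µg, and 4, 4 and 1 at 40 µg. No such count was made over all genes for that fit, so these have no share to be set against. In it Krt14 at 1 µg and 12 months differed by -0.67 ± 0.20 (adjusted p = 0.9998). At 10 µg and 12 months Krt15 differed by -0.59 ± 0.27 (adjusted p = 0.9993) and Sprr1a by 0.80 ± 0.24 (adjusted p = 0.9401). In both comparisons 0% of all genes were called. At 40 µg and 6 months, Krt8 averaged 8.05 ± 0.18 with 40 µg and 7.66 ± 0.18 with DM (difference 0.39 ± 0.13, adjusted p = 0.323), and Krt19 averaged 7.13 ± 0.17 with 40 µg and 6.78 ± 0.25 with DM (0.35 ± 0.14, adjusted p = 0.435).

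The trend over MWCNT dose was a slope per unit of log2(dose + 1), doses being in µg and DM counting as 0. Krt8 rose with dose at 6 months, 1 of 9 where 1.18% of all genes rose. Its means were 7.66 ± 0.18 in DM lungs and 7.70 ± 0.33, 7.85 ± 0.21, 8.05 ± 0.18 and 8.09 ± 0.29 at 1, 10, 40 and 80 µg (SD, n = 8 each). The slope was 0.071 ± 0.017 per unit (adjusted p = 0.0116), and 0.0709 without the 9 mice (adjusted p = 0.0177, with 0.924% of all genes). Krt18 gave 0.068 ± 0.020 at 6 months (adjusted p = 0.0584) and Krt19 0.048 ± 0.018 (adjusted p = 0.232).

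Sprr1a rose with dose at 12 months, 1 of 9 where 0.591% of all genes rose. Its means were 3.94 ± 0.58 in DM lungs and 4.08 ± 0.84, 4.74 ± 0.41, 4.53 ± 0.47 and 5.64 ± 1.62 at 1, 10, 40 and 80 µg (SD, n = 6 at 1 µg and 8 in the others). The slope was 0.215 ± 0.059 (adjusted p = 0.0422). The call was lost with the word replacement as a covariate (0.207, adjusted p = 0.057) and when only the groups compared were fitted (adjusted p = 0.0569). In the fit without the 9 mice, 2 of them in the 80 µg group, it was 0.128 ± 0.034 (adjusted p = 0.0269, with 0.803% of all genes), smaller by more than 1.5 times. The order was not strict, since 10 µg lay above 40 µg.

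At 1 month 0 of 9 passed the trend with all mice (3.03% of all genes called by limma). At an unadjusted p under 0.05 there were 3 of the 9 and 2654 of all 22180 genes. Without the 9 mice Cldn4 and Sprr1a passed, where 2.28% of all genes rose. Cldn4 had means of 4.98 ± 0.54 in DM lungs and 5.11 ± 0.33, 5.02 ± 0.54, 5.46 ± 0.33 and 5.59 ± 0.26 at 1, 10, 40 and 80 µg with all mice. Its slope was 0.089 ± 0.028 (adjusted p = 0.0532) with them and 0.101 ± 0.029 (adjusted p = 0.036) without the 9. The slope of Sprr1a was 0.055 ± 0.057 with all mice and 0.116 ± 0.033 without the 9 (adjusted p of 0.821 and 0.0281).

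**Figure D4:**
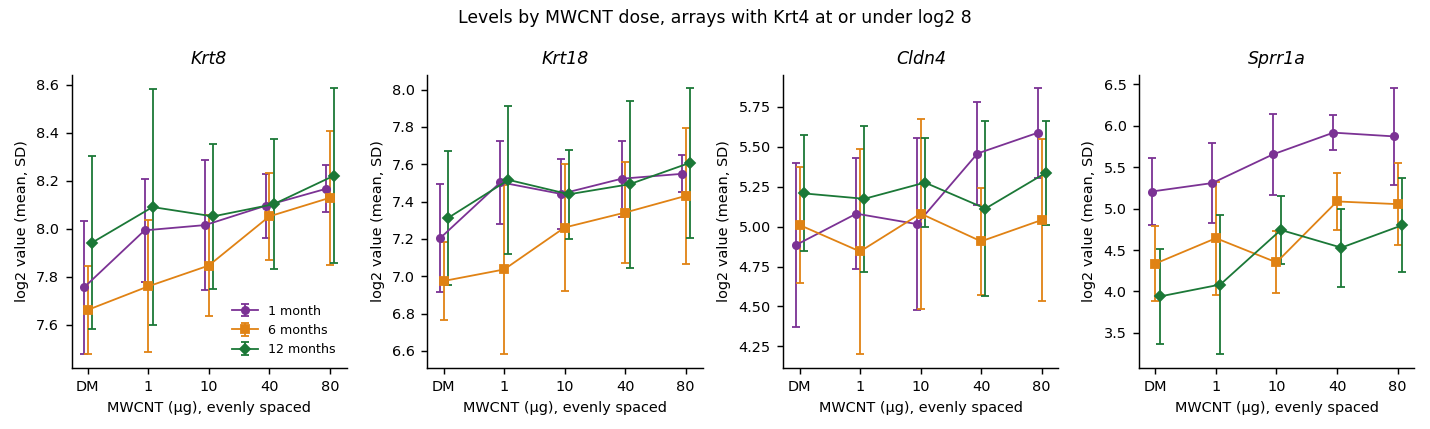
Mean log2 value, with SD, of Krt8, Krt18, Cldn4 and Sprr1a by MWCNT dose in µg from DM to 80 µg, at 1, 6 and 12 months, over mice with Krt4 at or under 8 (doses are evenly spaced on the axis). Krt8 at 6 months climbs with each dose from DM to 80 µg, and Sprr1a lies higher at 1 month than at 12 months at each dose.

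DM lungs themselves differed over time in Sprr1a. It was lower at 12 months than at 1 month, 1 of 9 where 0.437% of all genes were lower, at 3.94 ± 0.58 at 12 months and 5.71 ± 1.46 at 1 month (SD, n = 8 each). The difference, 12 minus 1 month, was -1.77 ± 0.44 (0.294-fold, adjusted p = 0.0193), with 6 of 8 mice below all mice at 1 month. The call was lost when only the groups compared were fitted (adjusted p = 0.117). In the fit without the 9 mice, which drops the DM mouse at 9.21, the 1-month mean was 5.21 ± 0.40 and the difference -1.27 ± 0.25 (adjusted p = 0.00162, with 0.329% of all genes lower). In mice with Krt4 at or under 8 it was -1.76 without the word replacement (5 against 3) and -0.645 with it (3 against 4). Crocidolite lungs averaged 5.83 at 12 months and 6.19 at 1 month in Sprr1a, and their differences are taken from these DM levels. At 6 against 1 month 0 of 9 passed in DM lungs (0.135% of all genes called by limma), with Sprr1a at -1.37 ± 0.44 (adjusted p = 0.2) and Krt19 at -0.40 ± 0.14 (adjusted p = 0.273). At an unadjusted p under 0.05 there were 2 of the 9 and 2066 of all 22180 genes. Without the 9 mice, 1 of them the DM mouse at 9.21, Sprr1a was at -0.87 ± 0.25 (adjusted p = 0.127), smaller by more than 1.5 times, and 0 of 9 passed (0.176% of all genes).

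Other epithelial genes were read from lists that leave out the 10 members. Of 14 measured genes of simple epithelium, 9 were higher and 0 lower in crocidolite lungs at 12 months, where 4.31% of all genes were higher, with a median of 0.445 against -0.00618 over all genes. Elf3, an epithelial transcription factor, was higher by 1.08 ± 0.19 (adjusted p = 1.07e-05), and Cldn3, another tight junction claudin, by 0.68 ± 0.13 (adjusted p = 8.83e-05). With crocidolite 1 of the 14 was higher at 1 month and 3 at 6 months, where 2.93% and 1.45% of all genes were. With 80 µg the counts were 1, 0 and 0 at 1, 6 and 12 months, where 1.69%, 0.803% and 0.158% of all genes were higher.

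Among 21 other genes of the alveolar transitional state, 5, 4 and 5 were higher at 1, 6 and 12 months with crocidolite and 4, 3 and 1 with 80 µg, and 0 lower in each. The shares of all genes higher were 2.93%, 1.45% and 4.31% with crocidolite and 1.69%, 0.803% and 0.158% with 80 µg. The same few genes recurred in these counts, namely Lgals3, Tnip3, Clu, Anxa1, Fn1 and Nupr1, and no other gene of the list was called. Which cells of the whole lung carried them was not tested. Lgals3 (galectin-3, also abundant in macrophages) was higher by 1.19 ± 0.15 at 12 months with crocidolite and by 0.71 ± 0.14 with 80 µg. Tnip3, an inhibitor of NF-kappaB signalling, was higher by 1.12 ± 0.16 at 12 months with crocidolite. Of 17 other basal cell genes, 2 were higher at 12 months with crocidolite, where 4.31% of all genes were, namely Aqp3, a water and glycerol channel (1.08 ± 0.26, adjusted p = 0.00279), and Perp, a desmosomal protein and p63 target (0.64 ± 0.21, adjusted p = 0.0396). At 1 month Aqp3 was the only basal gene called, where 2.93% of all genes were higher, at 0.90 ± 0.29 (adjusted p = 0.0426). With 80 µg 0 of the 17 passed at any time (limma), and the basal list mean in crocidolite lungs at 12 months ran from 6.50 to 6.68, against 6.13 to 6.59 in DM lungs.

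Markers of other epithelial types moved in the same comparison. At 12 months with crocidolite, 8 of 10 mucous cell genes were higher, where 4.31% of all genes were higher and 2.16% lower, led by Clca1, a secreted protein of mucous cells (4.70 ± 0.66), and Agr2, which folds mucins (2.32 ± 0.29). Of 12 type 2 alveolar genes 7 were higher, among them the alarmin Il33 (0.97 ± 0.15) and the surfactant protein Sftpd (0.74 ± 0.11), and their mean level ran from 10.62 to 10.79 in crocidolite mice, against 10.11 to 10.43 in DM mice. Of 11 club and ciliated cell genes 4 were higher, led by Dnah5, an axonemal dynein (0.68 ± 0.13), and Cfap126, a ciliary protein (0.65 ± 0.12). The others were Foxj1 and Rsph1, so all were genes of ciliated cells and no club cell gene was called. At 1 month with crocidolite the club cell genes Cyp2f2, Scgb3a2 and Cbr2 were lower (-0.60, -0.49 and -0.37), where 2.83% of all genes were lower. Genes of other lists were lower at 1 month too, namely Cav1, Emp2 and Vegfa (type 1 alveolar), Cd8b1 and Themis (thymus) and Upk1b (mesothelium). At 12 months with crocidolite, 1 of 12 type 1 alveolar genes was lower, the caveolin Cav1 (-0.26 ± 0.08, adjusted p = 0.017). Of 10 gland genes 1, the iron-binding Ltf, was higher (2.39 ± 0.34), and of 27 squamous genes 1, Psca (0.64 ± 0.16, adjusted p = 0.00437). Counts of 1 in lists of 10 to 27 genes lie near the shares over all genes. At 12 months with crocidolite limma called 0 of 10 mesothelial, 9 thymus, 10 skeletal muscle and 8 cartilage genes. The part of these cell types in the members' differences was not tested.

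Across the 18 group means, over mice with Krt4 at or under 8, Krt8 and Krt18 had a Pearson correlation of 0.958, Trp63 and Krt14 0.837, Krt18 and Krt19 0.821, and Krt8 and Krt19 0.796. Krt15 correlated at most at 0.321 with any other member. These values describe 18 points that share arrays and their normalization. Among other genes with group means at least 0.5 apart, Trp63 was most like Dmbt1, a mucosal scavenger receptor protein (0.935), Plek2 (0.928) and Serpinb5, a serpin of basal epithelium (0.923). Krt14 was most like Serpinb5 (0.86), Plek2 (0.843) and Oosp1 (0.836).

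The nearest genes to Krt8 were Sqle, an enzyme of cholesterol synthesis (0.949), Inhbb (0.947) and Eya2 (0.944), while those to Krt18 were Urah (0.927), Spint1, an epithelial protease inhibitor (0.919), and Wfdc2 (0.908). Krt19 was most like S100a1 (0.942), Pdzk1ip1 (0.93) and Cxadr, a tight junction adhesion protein (0.922), and Cldn4 most like Fdps, another enzyme of the cholesterol pathway (0.919), Npc2 (0.916) and Gstp3 (0.916). Sprr1a was most like the chemokine Cxcl16 (0.956) Lamp3, a lysosomal protein of type 2 alveolar cells (0.956), and Hc, complement component C5 (0.952). Krt15 and Krt17 had no gene above 0.778 and 0.669, their nearest being Clec4b2, Atp6v1g3 and Snora41 for Krt15 and Slc5a4b, Scara3 and Endov for Krt17.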

How the data were processed

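Lung RNA was measured on 139 Affymetrix arrays with the WT Plus kit. The authors deposited log2 values. The submitters' processing notes list RMA, oligo and limma without version or role, and name no genome build. Values ran from -0.04966 to 13.276, with array medians of 4.009 to 4.336, and the number of arrays limits the precision.

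Of 41345 features, 23521 were paired with a single symbol (GEO platform annotation, 23328 matched in RefSeq), 1814 with several and 16010 with none. The feature with the highest mean was kept for each of 22180 genes, with no filter on low values. Groups came from the labels, which number the mice. The 2 arrays of replicate 1 of 1 µg at 1 month are of the same mouse and were averaged and counted once.

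A mean per group was fitted over all arrays (120 residual degrees of freedom) with limma 3.58.1 (R 4.3.3), moderated by eBayes, for 25 contrasts, two-sided, with Benjamini-Hochberg adjustment over all genes and a threshold of 0.05. SE is that of the contrast, and intervals are 95%. Counts over all genes at an unadjusted p under 0.05 were made for the fit with all mice only. On simulated data for 80 µg against DM at 1 month, where 200 of 22180 genes were altered, the fit recovered 60% of 1.5-fold changes and 95% of 2-fold changes. It made 13 false calls at either size of change. The 17 alternatives covered arrays left out, covariates, scaling, normalization, dim genes, moderation, features and the samples fitted. The members, the 13 other gene lists (170 of 177 genes measured) and the tests were chosen with earlier results of these data known. Named genes are the members, Krt4, the 2 largest called genes of a list for crocidolite or 80 µg, the 2 highest of a list in mice with high Krt4 (given for squamous and muscle genes: Krt4, Krt13 and Acta1) and the 3 most alike genes per member, without predicted genes. Other called genes are also named for the club and ciliated, type 1 alveolar and alveolar transitional lists. Figures were drawn with matplotlib 3.10.9.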

Additional observations from a re-analysis of the deposited data

Results flagged for a closer look

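In each group of 5 to 8 mice the highest and the lowest value of each of the 9 genes was set against the other mice by Dixon's gap test, 162 gene and group pairs in all. In 16 of them a mouse stood far from the rest, where chance flags about 1 in 20 groups, and 11 of the 16 were mice with Krt4 over 8. The difference of an effect between times passed for 0 of the 9 genes with limma, for crocidolite and for 80 µg.

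The mouse of replicate 4 at 1 µg and 1 month was high in Trp63 (4.311, next highest 3.739), Krt14 (4.534, next 3.162) and Sprr1a (8.761, next 5.959), with Krt4 at 11.89. Replicate 4 at 80 µg and 1 month was high in Trp63 (4.387, next 3.685) and Krt14 (4.473, next 2.997), with Krt4 at 11.24. Replicate 2 of DM at 1 month was high in Krt14 (5.138, next 3.083), Krt15 (6.228, next 4.162) and Sprr1a (9.214, next 5.559), with Krt4 at 12.11. Replicate 3 at 80 µg and 6 months was high in Krt14 (4.59, next 3.311), Krt15 (6.146, next 4.437) and Sprr1a (8.695, next 5.542), with Krt4 at 11.84. These values lift the mean of their group for the genes named.

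The other 5 pairs were in mice with Krt4 under 8. Krt17 was 4.3 in replicate 5 at 80 µg and 6 months, with the next highest at 2.557. Cldn4 was 6.069 in replicate 2 of the same group (next 5.208) and 6.497 in replicate 4 of crocidolite at 12 months (next 5.97). Krt18 was low, at 6.943, in replicate 4 of crocidolite at 1 month (next lowest 7.652), an array that correlated less with the others than any other did (median 0.9545 over all genes). Trp63 was low, at 2.972, in replicate 1 of 1 µg at 12 months (next lowest 3.267).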

How the results depend on the processing

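No called value changed sign under any of the 17 alternatives, and under trended and robust moderation no count of members moved. Counts of the 9 genes are given here where they moved by more than 1.5 times, and the cause was not tested. Shares of all genes called are given above for the fits with all mice and without the 9 mice of high Krt4 only. A count that moved under another alternative therefore has no share to be set against, and is not read as a result about the members. For crocidolite at 1 month (1 with all mice) the count was 3 without the 9 mice of high Krt4 and 3 when the word replacement was also a covariate, 2 with centring, 2 with quantile normalization, 0 with only the groups compared, 2 without mice of high Krt4 or low correlation, and 0 to 1 when leaving out each crocidolite mouse (0 without replicate 5). For crocidolite at 6 months (2) it was 5 with centring, 5 with quantile normalization, 4 with only the groups compared and 1 with features averaged. For crocidolite at 12 months (6) the counts were 5 to 7. For 80 µg against DM (0 at each time) it was 1 at 6 months, Krt8, without mice of high Krt4 or low correlation, and 1 at 12 months, Sprr1a, with centring, quantile normalization, dim genes left out or mice of low correlation left out. For 80 µg against crocidolite at 12 months (1) it was 3 without mice of high Krt4, 3 with the covariate too, 2 without low correlation too, and 0 with only the groups compared.

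For the dose trend at 1 month (0) it was 2 without mice of high Krt4, 2 with quantile normalization, 2 without dim genes, 2 with only the groups compared, 2 without mice of high Krt4 and with the covariate, 1 with the covariate alone, 1 with centring and 1 without mice of high Krt4 or low correlation. At 6 months (1) it was 2 with the covariate, centring, quantile normalization, dim genes left out, or the covariate without mice of high Krt4, and 0 without mice of high Krt4 or low correlation. At 12 months (1) it was 0 with the covariate and 0 with only the groups compared, and for DM at 12 against 1 month (1) it was 0 with only the groups compared. Among all differences of the 9 genes in 25 contrasts, mostly uncalled, 26 changed sign without the mice of high Krt4. The 3 alternatives that combine choices or use correlation over all features (10 arrays under 0.94) were chosen after seeing the data. The planned cut at a correlation of 0.94 over all genes was not run, since the lowest was 0.9545. No paired analysis was possible because the numbers given to mice within a group carry no link between groups. Signal limits Trp63, Krt14, Krt15 and Krt17, which lie below the median gene.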

Other observations

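The mouse of replicate 1 with 1 µg at 1 month had 2 arrays, 1 of them with the word replacement in its title. The array with the word and the array without it read 3.52 and 5.03 for Krt15, 7.52 and 8.35 for Krt8, 4.29 and 5.43 for Cldn4, and 5.41 and 5.29 for Sprr1a. With the array without the word alone, 0 of the 9 genes passed for 1 µg at 1 month, as with the mean of both.

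The second feature of Krt18 averaged 4.97 over all mice, against 7.41 for the feature used. Its crocidolite differences were 0.468, 0.317 and 0.705 at 1, 6 and 12 months, against 0.316, 0.523 and 0.585 for the feature used, so both were positive at each time.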
